A study of Mus musculus with 4 samples.

Results

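The aminoacyl-tRNA synthetases, the enzymes that load each tRNA with its amino acid, were followed through MYC shut-off in a mouse lymphoma line. They were taken by gene symbol in the array annotation: a letter for the amino acid followed by ars, with Farsa, Farsb and Eprs added, and a suffix 2 for the enzymes of the mitochondrion. By this rule 35 synthetase genes with 77 probes were found among 19057 genes on the array, 19 cytosolic and 16 mitochondrial. A gene counted as detected if any of its probes reached a detection p of 0.01 or below on any array, and 33 synthetases passed, against 8674 of all genes. All 19 cytosolic genes and 14 of the 16 mitochondrial genes were detected, 30 of the 33 on all 4 arrays. Hars2 and Yars2 were not detected on any array.

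A synthetase recognises an amino acid and its tRNAs, spends ATP to activate the amino acid and joins it to the tRNA, so that the ribosome can read the codon. Cytosol and mitochondrion translate separately, and for most amino acids each compartment has its own nuclear gene. Gars and Kars are exceptions, because each gives both a cytosolic and a mitochondrial enzyme, and they stand here with the cytosolic genes. Several cytosolic synthetases sit together in the multisynthetase complex, held by the scaffold proteins Aimp1, Aimp2 and Eef1e1. Lymphoma cells that grow on MYC make protein at a high rate, and charging tRNA is a step in this.

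In all, 4 arrays of the line CL4188, a conditional MYC lymphoma from FVB/N mice, were available. The groups were miR-17-92 cells (vector MSCV with the microRNA cluster miR-17-92) with doxycycline (DOX) at 20 ng/ml for 48 hours, labelled MYC OFF, and without DOX, labelled MYC ON, and control cells (vector MSCV alone) with the same DOX and without it. Each group was 1 array, so differences between groups could not be set against replicates and carry no p-value. All groups come from 1 parental line, and all carry a retroviral vector. Cells without the MYC switch were not analysed here, so DOX and MYC shut-off cannot be told apart. Both arrays with DOX came from 1 slide and both without it from another, so slide and DOX cannot be told apart either. The comparisons share arrays with each other, and their values are not independent.

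The mouse Myc probe was detected on neither array with DOX and on both without it. With DOX its signal was lower, by at least 5.8-fold in miR-17-92 cells and by at least 6.28-fold in control cells. Probes detected numbered 14658 and 14864 on the arrays with DOX, against 13656 and 13251 without it, and precision is limited by the number of arrays. Of 9 T-cell markers on the array 8 were detected with DOX and 7 without it, and no B-cell, erythroid or stromal marker was detected on any array. Itgam, a myeloid marker, was detected with DOX alone, and its part in the values below was not tested.

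Signals are normalized log2 intensities, read from the brightest detected probe of a gene, and a difference of 1 is 2-fold. Probes of the same gene gave DOX effects that spread by log2 0.32 in the miR-17-92 cells and 0.33 in the control cells over all genes with several detected probes. This spread is technical and does not stand for replicate error. Because all 4 arrays were given the same distribution, each difference is relative to the other genes. In bulk RNA, fewer cells of a type and less RNA per cell cannot be told apart.

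The first question was what DOX did to the synthetases in each line. Most were lower with DOX and none was 2-fold higher, although 14.8% of all genes in the miR-17-92 cells and 19.9% in the control cells were. In the miR-17-92 cells 16 of 33 were 2-fold lower or more and 31 of 33 were below 0, where 12.8% and 45.8% of all analysed genes were. The 16 include Yars, which was detected in these cells without DOX alone and is only known to be at least 1.36-fold lower. In the control cells 15 of 33 were 2-fold lower or more and 30 of 33 below 0, against 18.0% and 47.7% of all genes. The median log2 ratio was -0.91 in the miR-17-92 cells and -0.99 in the control cells, while that of all genes was 0.09 and 0.06. In both lines at once 14 of 33 synthetases were 2-fold lower, against 10.3% of all genes. With the 30 genes detected on every array the 2-fold lower count was 15 in either line. Among all genes detected on every array the shares were 12.0% in the miR-17-92 cells and 18.3% in the control cells.

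**Figure D1:**
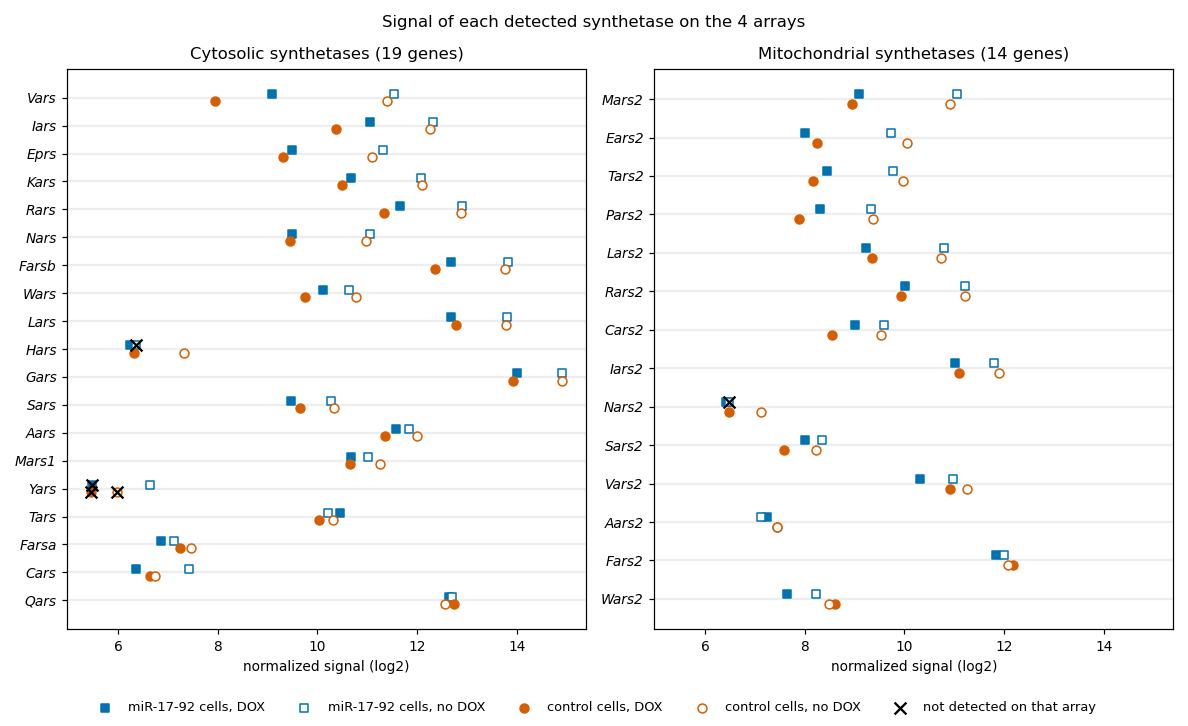
Normalized log2 signal (horizontal axis) of the 33 detected synthetases on the 4 arrays, cytosolic on the left and mitochondrial on the right, ordered by the DOX effect in control cells. Filled symbols are arrays with DOX, open symbols arrays without it, squares miR-17-92 cells, circles control cells, and crosses mark arrays where the probe was not detected. The filled symbols lie left of the open ones for most genes, with the widest distance at Vars and almost none at Qars.

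Among cytosolic enzymes the valine enzyme Vars stood apart. Vars had a log2 signal of 9.08 with DOX against 11.54 without it in the miR-17-92 cells, and 7.94 with DOX against 11.40 without it in the control cells. It was 5.49-fold and 11-fold lower with DOX in these lines, and both arrays with DOX lay below both without it. All 3 detected Vars probes read this, from log2 -2.46 to -1.77 in the miR-17-92 cells and from -3.59 to -2.87 in the control cells. The lowest of these 3 probes in brightness was not detected on either array with DOX, so its ratio rests partly on background.

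Iars, the isoleucine enzyme, had 11.06 with DOX against 12.31 without it in the miR-17-92 cells and 10.38 against 12.26 in the control cells. That is a difference of -1.25 and -1.88. Eprs, the only bifunctional synthetase, which charges glutamate and proline from a single chain, had 9.48 with DOX against 11.32 without it in the miR-17-92 cells and 9.30 against 11.09 in the control cells. Its differences of -1.83 and -1.79 were almost alike in the lines. Both genes were lower on each array with DOX than on each array without it.

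Kars, the lysine enzyme of both compartments, had 10.68 with DOX against 12.07 without it in the miR-17-92 cells and 10.49 against 12.09 in the control cells, or -1.39 and -1.60. Rars, the arginine enzyme, had 11.65 with DOX against 12.91 without it in the miR-17-92 cells and 11.35 against 12.88 in the control cells, or -1.26 and -1.54. Iars, Eprs, Kars and Rars are all members of the multisynthetase complex. Of the 7 complex members on the array 5 were 2-fold lower in each line, against 12.8% and 18.0% of all genes. The medians of the 7 were -1.25 in the miR-17-92 cells and -1.54 in the control cells. The fifth was Lars, the leucine enzyme, at -1.13 and -1.0, while Mars1, the methionine enzyme, lay at -0.34 and -0.60, within 2-fold.

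Of 12 cytosolic synthetases outside the complex 5 were 2-fold lower in the miR-17-92 cells (median -0.86) and 4 in the control cells (median -0.83). Among all genes the shares were 12.8% and 18.0%. The 5 include Cars and Yars, both near background, and without background correction or with an offset of 50 the count was 3 in each line. Nars, the asparagine enzyme, stood at -1.56 and -1.54. The phenylalanine enzyme is built from 2 gene products. Farsb, its beta subunit, stood at -1.15 in the miR-17-92 cells and -1.4 in the control cells, whereas Farsa, the catalytic alpha subunit, stood at -0.25 and -0.21. Its signal was low on every array, 6.87 with DOX against 7.12 without it in the miR-17-92 cells and 7.25 against 7.46 in the control cells. The 2 subunits of the same enzyme were thus on different sides of the 2-fold line in both lines. Farsa was read from a single dim probe, and with median scaling its ratios turned to 0.19 in the miR-17-92 cells and 0.28 in the control cells.

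Wars, the tryptophan enzyme, which is also known as an interferon-induced gene, was within 2-fold in the miR-17-92 cells (-0.52) and at -1.03 in the control cells, where it came within 2-fold without background correction, with the larger offset, with median scaling and with the authors' processed values. Its other 3 detected probes read between -1.31 and -0.70 in the miR-17-92 cells and between -1.60 and -0.91 in the control cells, so the brightest probe read the smallest effect in the miR-17-92 cells. Gars, the glycine enzyme of both compartments, lay just inside 2-fold at -0.91 and -0.99. Sars, the serine enzyme, stood at -0.81 and -0.67, and its second probe read -2.22 and -1.15. Aars, the alanine enzyme, stood at -0.25 in the miR-17-92 cells and -0.64 in the control cells.

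At the other end were enzymes that hardly differed. Qars, the glutamine enzyme and a complex member, had 12.65 with DOX against 12.70 without it in the miR-17-92 cells and 12.74 against 12.56 in the control cells. Its differences of -0.05 and 0.17 were smaller than the spread between probes, and its 3 detected probes all read between -0.18 and 0.17. The sign in the control cells turned to -0.17 with the authors' processed values and -0.01 with median scaling. Tars, the threonine enzyme, stood at 0.24 in the miR-17-92 cells and -0.29 in the control cells.

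Cars, the cysteine enzyme, had 6.37 with DOX against 7.43 without it in the miR-17-92 cells and 6.64 against 6.73 in the control cells, or -1.06 and -0.10. These signals lie close to the detection floor. The Cars probe read here is annotated to a cDNA clone and not to a RefSeq transcript, and both other Cars probes were not detected on any array. The ratio in the miR-17-92 cells was within 2-fold without background correction (-0.53), with median scaling (-0.69) and with the authors' processed values (-0.70), and in the control cells the sign turned to 0.40 with median scaling. Hars, the histidine enzyme, stood at -1.0 in the control cells (just inside 2-fold), also read from a clone probe, and gave no fold in the miR-17-92 cells, where it was not detected without DOX. Yars, the tyrosine enzyme, was detected in miR-17-92 cells without DOX alone and was at least 1.36-fold lower there with DOX. Yars is counted above among the 2-fold lower genes by its measured ratio of -1.17.

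Of the detection limits, Yars passed with a detection p of 0.0053 on its single array, and Hars2, the nearest gene that did not pass, had 0.0182 at best.

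**Figure D2:**
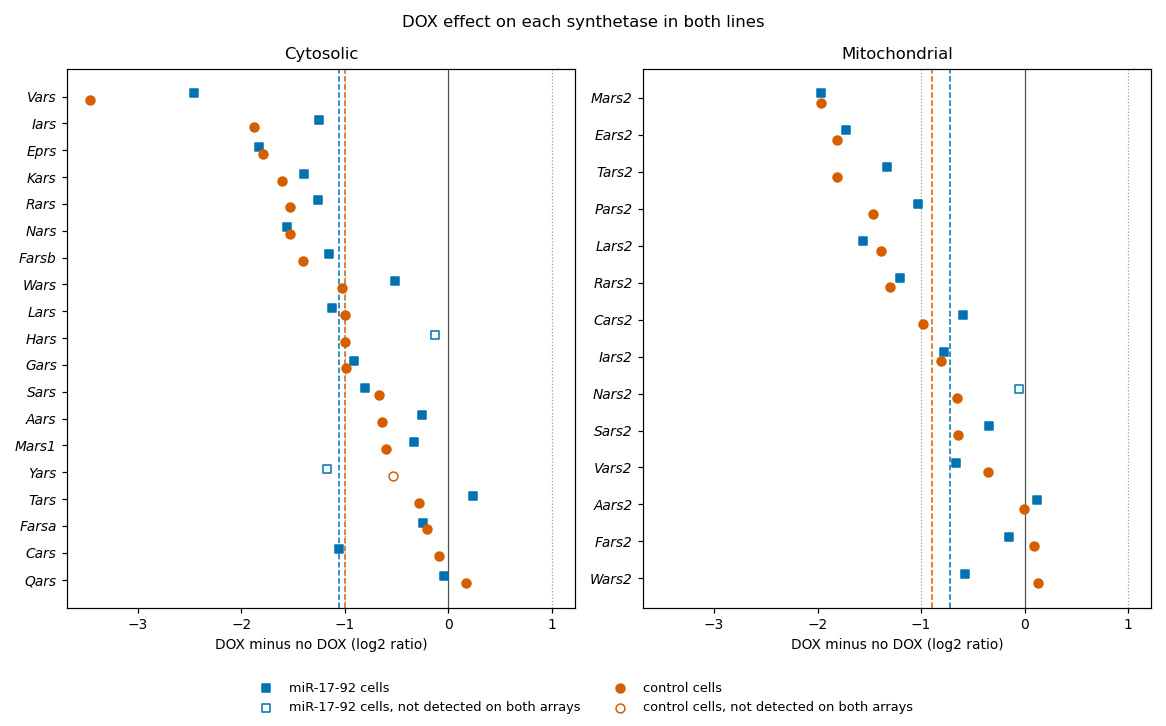
Log2 ratio of DOX over no DOX (horizontal axis) for each cytosolic (left) and mitochondrial (right) synthetase, with squares for miR-17-92 cells and circles for control cells, open where the gene was not detected on both arrays. Dashed lines are the medians of each line (-1.06 and -1.0 for cytosolic, -0.72 and -0.89 for mitochondrial genes), and dotted lines mark 2-fold.

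The mitochondrial enzymes were also lower. Of 14 detected, 6 were 2-fold lower in each line, and they were the same 6 genes, Mars2, Ears2, Tars2, Pars2, Lars2 and Rars2. By comparison, 12.8% of all genes in the miR-17-92 cells and 18.0% in the control cells were 2-fold lower. The medians of the mitochondrial genes were -0.72 in the miR-17-92 cells and -0.89 in the control cells. Mars2, the methionine enzyme, had 9.08 with DOX against 11.05 without it in the miR-17-92 cells and 8.95 against 10.92 in the control cells. It was 3.91-fold lower in both lines, and its second probe gave -2.0 and -1.91.

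Ears2, which charges the mitochondrial glutamate tRNA and also misloads the glutamine tRNA as a first step to glutaminyl-tRNA, had 8.01 with DOX against 9.73 without it in the miR-17-92 cells and 8.24 against 10.05 in the control cells. Tars2, the threonine enzyme, had 8.45 with DOX against 9.77 without it in the miR-17-92 cells and 8.16 against 9.97 in the control cells. Pars2, the proline enzyme, had 8.30 with DOX against 9.33 without it in the miR-17-92 cells and 7.89 against 9.36 in the control cells. Each of these 3 was lower on both arrays with DOX than on both without it. For Pars2 the second probe read a smaller difference, -0.47 and -0.51, and the mean of its probes was within 2-fold in both lines.

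Lars2, the leucine enzyme, stood at -1.56 in the miR-17-92 cells and -1.38 in the control cells, and Rars2, the arginine enzyme, at -1.20 and -1.3. Cars2 stood at -0.59 and -0.98, Iars2 at -0.78 and -0.81, Sars2 at -0.34 and -0.64 and Vars2 at -0.66 and -0.35, all within 2-fold. The second Iars2 probe, detected on all 4 arrays, read -1.41 in the miR-17-92 cells and -0.67 in the control cells, and the mean of both probes was beyond 2-fold in the miR-17-92 cells (-1.10). The asparagine enzyme Nars2 was at -0.65 in the control cells, and in the miR-17-92 cells it was not detected without DOX.

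The 3 mitochondrial genes with the highest ratios in the control cells were near 0 there. Wars2, the tryptophan enzyme, had 7.64 with DOX against 8.22 without it in the miR-17-92 cells and 8.61 against 8.49 in the control cells. Fars2, the phenylalanine enzyme, which works as a single chain in mitochondria, had 11.84 with DOX against 12.00 without it in the miR-17-92 cells and 12.17 against 12.07 in the control cells. Aars2, the alanine enzyme, had 7.24 with DOX against 7.12 without it in the miR-17-92 cells and 7.44 against 7.44 in the control cells. For all 3 genes the arrays with and without DOX overlapped. The small signs of Fars2 and Aars2 were not stable: in the control cells Fars2 turned to -0.03 with median scaling and -0.19 with the authors' processed values, and Aars2 to 0.46 with median scaling.

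Set side by side, the cytosolic genes had medians of -1.06 in the miR-17-92 cells and -1.0 in the control cells, and the mitochondrial genes -0.72 and -0.89. The gap of -0.34 and -0.10 between these medians is small beside the range within either class. In the miR-17-92 cells the cytosolic median is the value of Cars, a dim clone probe, and the gap there was -0.04 without background correction, -0.11 with the offset of 50 and -0.07 with the authors' processed values. With median scaling, the mean of probes, detection on all 4 arrays or a detection p of 0.05 it lay between -0.40 and -0.28. In the control cells it lay between -0.19 and -0.02 over all settings. Cytosolic ratios ran from -2.46 to 0.24 and mitochondrial ratios from -1.97 to 0.12 in the miR-17-92 cells, and from -3.46 to 0.17 and from -1.97 to 0.12 in the control cells. In the control cells 9 of 19 cytosolic and 6 of 14 mitochondrial genes were 2-fold lower, and in the miR-17-92 cells 10 of 19 and 6 of 14. The 10 include Cars and Yars, both near background. Among all genes 18.0% were 2-fold lower in the control cells and 12.8% in the miR-17-92 cells. Without Gars and Kars the cytosolic medians were the same in both lines. The classes were not tested against each other.

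Promoters were searched because many of these genes were lower together. Of the 33 synthetases 25 had a promoter in the RefSeq table of build GRCm38.p6 (250 bases before to 50 after the gene's start), in 26 entries. Of the 8 without a promoter 7 are cytosolic. They include Vars, Rars, Nars, Lars and Wars, all 2-fold lower in the control cells, so the cytosolic shares below leave these genes out. The E-box CACGTG, which MYC and its relatives can bind and which reads the same on both strands, was in 19.2% of synthetase promoters, in 7.15% of all 32851 and in 10.5% of the 9118 of analysed genes. It was in 4 of 12 cytosolic (Aars, Farsb, Iars, Tars) and 1 of 14 mitochondrial promoters (Ears2). The variant CACGCG, searched on both strands, was in 26.9% of synthetase promoters, 9.27% of all and 17.9% of those of analysed genes. TGATGNAA, the core of the element that ATF4 with a C/EBP partner can bind, searched on both strands (TTNCATCA on the other), was in 5 of 12 cytosolic and 0 of 14 mitochondrial promoters, or 19.2% of synthetase promoters, against 3.97% of all and 2.15% of those of analysed genes. No motif overlapped another in these promoters. A match of letters is no evidence that a factor binds.

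Here 5 promoters are shown because they hold the E-box, the TGATGNAA core or both and belong to genes with quite different DOX effects. The promoters of Farsb and Yars also meet the motif rule and are not shown. Capitals mark the E-box, its variant and the TGATGNAA core on either strand, and each sequence runs 5′ to 3′ along the gene.
Iars (chr13:49681880-49682179, plus strand): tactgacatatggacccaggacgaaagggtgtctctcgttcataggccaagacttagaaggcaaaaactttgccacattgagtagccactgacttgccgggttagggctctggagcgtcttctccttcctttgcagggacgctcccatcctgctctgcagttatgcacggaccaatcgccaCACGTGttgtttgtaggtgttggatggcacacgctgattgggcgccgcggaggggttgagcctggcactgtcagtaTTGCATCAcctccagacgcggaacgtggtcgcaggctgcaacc
Aars (chr8:111033592-111033891, plus strand): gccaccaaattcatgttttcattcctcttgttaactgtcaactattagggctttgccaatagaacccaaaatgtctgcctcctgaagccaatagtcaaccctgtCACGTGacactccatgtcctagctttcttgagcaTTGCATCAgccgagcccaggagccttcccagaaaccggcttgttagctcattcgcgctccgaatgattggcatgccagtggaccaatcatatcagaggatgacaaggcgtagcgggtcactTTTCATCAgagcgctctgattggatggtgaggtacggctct
Tars (chr15:11399609-11399908, minus strand): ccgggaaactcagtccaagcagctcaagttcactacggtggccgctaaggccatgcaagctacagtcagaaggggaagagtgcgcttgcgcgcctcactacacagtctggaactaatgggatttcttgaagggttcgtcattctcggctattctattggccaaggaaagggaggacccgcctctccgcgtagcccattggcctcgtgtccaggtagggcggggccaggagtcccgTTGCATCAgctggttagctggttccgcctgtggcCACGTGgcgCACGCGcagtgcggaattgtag
Gars (chr6:55037751-55038050, plus strand): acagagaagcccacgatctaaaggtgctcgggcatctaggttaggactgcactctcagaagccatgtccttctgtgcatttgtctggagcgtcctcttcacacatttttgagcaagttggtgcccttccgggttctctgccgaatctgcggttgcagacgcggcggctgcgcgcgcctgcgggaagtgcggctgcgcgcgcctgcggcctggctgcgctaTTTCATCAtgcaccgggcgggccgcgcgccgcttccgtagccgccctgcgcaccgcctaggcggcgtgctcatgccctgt
Ears2 (chr7:122067037-122067336, minus strand): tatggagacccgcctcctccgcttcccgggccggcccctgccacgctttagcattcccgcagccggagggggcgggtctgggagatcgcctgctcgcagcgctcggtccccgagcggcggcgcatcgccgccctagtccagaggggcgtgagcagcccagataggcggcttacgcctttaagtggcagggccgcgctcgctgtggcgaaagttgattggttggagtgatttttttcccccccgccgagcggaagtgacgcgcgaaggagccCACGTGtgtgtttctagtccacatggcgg

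Iars, Aars and Tars each hold both an E-box and the core. The E-box begins 69 bases before the start of Iars, 146 before that of Aars and 19 after that of Tars. Their DOX effects were -1.25, -0.25 and 0.24 in the miR-17-92 cells and -1.88, -0.64 and -0.29 in the control cells. Gars, with the core alone, stood at -0.91 and -0.99, and Ears2, with the E-box alone 21 bases after the start, at -1.72 and -1.81. The 3 promoters with both motifs thus belonged to a gene 2-fold lower in both lines and to 2 genes within 2-fold.

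The comparison can also be made amino acid by amino acid, since 12 amino acids had both a cytosolic and a mitochondrial gene detected, in 13 pairs with Farsa and Farsb counted apart. In the control cells the cytosolic gene had the lower ratio in 9 pairs and the mitochondrial gene in 4. Both genes were 2-fold lower in 2 pairs (leucine and arginine), a single gene in 7 and neither in 4. The order was the same in the miR-17-92 cells for 11 of 13 pairs, and tryptophan and cysteine were the exceptions.

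The widest gap was that of valine. Beside the Vars values above, Vars2 had 10.31 with DOX against 10.97 without it in the miR-17-92 cells and 10.90 against 11.26 in the control cells. The DOX effect of Vars minus that of Vars2 was -1.79 in the miR-17-92 cells and -3.11 in the control cells. Threonine and methionine ran the other way, with the ratio of Tars above that of Tars2 by 1.56 and 1.52 and that of Mars1 above that of Mars2 by 1.63 and 1.36 in these lines. Which compartment's enzyme was lower thus differed between amino acids and was alike in the lines for these 3.

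**Figure D3:**
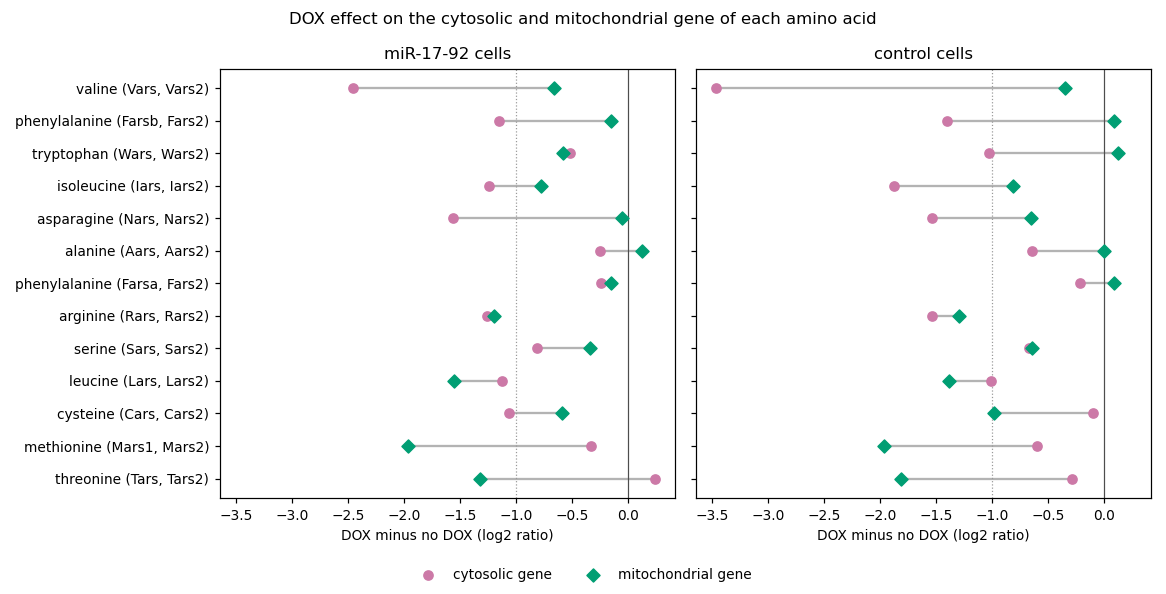
Log2 ratio of DOX over no DOX (horizontal axis) of the cytosolic gene (circles) and the mitochondrial gene (diamonds) of each amino acid, in miR-17-92 cells (left) and control cells (right). Lines join the genes of a pair, which are ordered from the pair with the lowest cytosolic ratio relative to the mitochondrial one (valine, -3.11 in control cells) at the top to the highest (threonine, 1.52) at the bottom.

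Synthetases fall in 2 structural classes, I and II, that have unrelated catalytic folds. Among cytosolic genes of class I, 6 of 9 were 2-fold lower in the miR-17-92 cells (median -1.13) and 5 of 9 in the control cells (median -1.0). Of class II it was 3 of 9 in each line, with medians of -0.81 and -0.99. Among mitochondrial genes of class I, 4 of 8 were 2-fold lower in each line, and of class II 2 of 6. Eprs has a catalytic part of each class and was left out of these counts. Of all genes, 12.8% (miR-17-92 cells) and 18.0% (control cells) were 2-fold lower. The 6 cytosolic class I genes include Cars and Yars, both near background. Without background correction both came within 2-fold (-0.53 and -0.47). The 5 include Wars and Lars, which did so too in the control cells (-0.93 and -0.99). Gars, of class II, passed 2-fold in both lines with median scaling. The higher count of class I thus rests partly on dim or borderline genes.

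Several probes were detected for 18 of the 33 synthetases. The brightest and the next probe gave the DOX effect the same sign for all 18 in the miR-17-92 cells and for 17 in the control cells, and lay on the same side of 2-fold lower for 13 and 16. The exception in sign was Gars, whose dim second probe read 0.19. The range over the probes of a gene had a median of 0.39 in the miR-17-92 cells and 0.30 in the control cells and reached 1.41 at Sars and 1.18 at Gars.

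**Figure D4:**
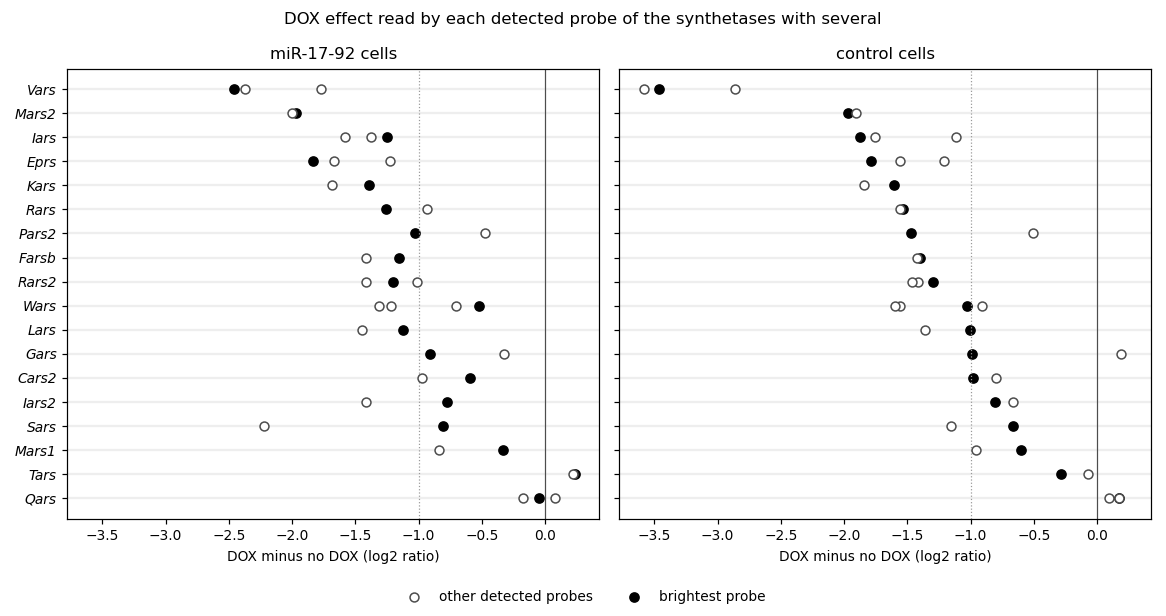
Log2 ratio of DOX over no DOX (horizontal axis) read by each detected probe of the 18 synthetases with several, in miR-17-92 cells (left) and control cells (right). Filled circles are the brightest probe, used in the text, and open circles the others. The probes of Vars, Mars2, Eprs and Kars all lie left of -1, while those of Sars, Pars2 and Gars spread.

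The next question was whether the response differed between the lines. Subtracting the control cells' DOX effect from that of the miR-17-92 cells gave a difference above 0 for 21 of 33 synthetases and below 0 for 12, where 50.2% of all genes were below 0. It was within 2-fold for 32 of 33, where 88.1% of all genes were within 2-fold. The median was 0.21 for cytosolic and 0.09 for mitochondrial genes, beside 0.00 for all genes and a spread between probes of 0.31. Vars, with 1.0, was the single gene 2-fold above 0 (7.10% of all genes were), and it was between 0.71 and 0.91 with no background correction, another offset, median scaling or the authors' processed values. Averaging its probes gave 1.10. For Iars the difference was 0.63 with the brightest probe and 0.18 with the mean of its probes.

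The lowest differences were those of Cars (-0.96) and Wars2 (-0.70). The Cars difference was -0.48 without background correction and beyond 2-fold only with median scaling, and all 4 of its signals were dim. Eprs, Nars, Mars2, Farsa and Lars2 lay within 0.2 of 0, less than the spread between probes of a gene. Iars2 stood at 0.03 with its brightest probe and at -0.36 with the mean of its probes. The 12 genes that were 2-fold lower in both lines under every alternative processing were Ears2, Eprs, Farsb, Iars, Kars, Lars2, Mars2, Nars, Rars, Rars2, Tars2 and Vars. The share of all genes under this rule is not given here, so the count of 12 is not read as a result.

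The vector comparison asked what miR-17-92 does to these genes with MYC on and after shut-off. Without DOX all 33 synthetases were within 2-fold, where 2.21% of all genes were not, with a median of 0.01 for cytosolic and -0.08 for mitochondrial genes. The 3 largest absolute differences among genes detected on both arrays were Cars at 0.69, Farsa at -0.34 and Aars2 at -0.33. Their signals without DOX were 7.43 in miR-17-92 cells against 6.73 in control cells for Cars, 7.12 against 7.46 for Farsa and 7.12 against 7.44 for Aars2. All 3 are among the dim genes. Over all genes the spread between probes was 0.19 in this comparison, and 3 genes at the detection limit gave only bounds: in miR-17-92 cells Hars was lower by at least 1.78-fold, Nars2 lower by at least 1.56-fold and Yars higher by at least 1.02-fold.

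With DOX 32 of 33 were within 2-fold, where 11.2% of all genes were not, with a median of 0.07 for cytosolic and -0.06 for mitochondrial genes. Vars, the exception, was 2.2-fold higher in the miR-17-92 cells (6.36% of all genes were 2-fold higher), with 9.08 against 7.94 in the control cells. This was 0.84 on the log2 scale without background correction and 0.89 with the authors' processed values, within 2-fold. Iars was higher by 0.68, with 11.06 in the miR-17-92 cells against 10.38 in the control cells. The second Iars probe, detected on all 4 arrays, read a smaller difference of 0.35. Wars2 was lower at -0.97, with 7.64 in the miR-17-92 cells against 8.61 in the control cells. Vars and Iars signals differed by 0.14 and 0.05 between the lines without DOX.

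**Figure D5:**
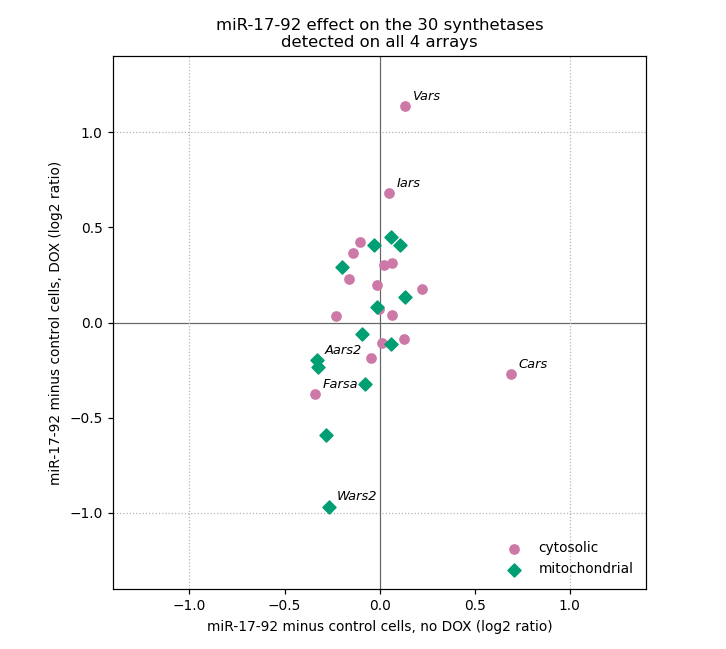
Log2 ratio of miR-17-92 over control cells without DOX (horizontal axis) and with DOX (vertical axis) for the 30 synthetases detected on all 4 arrays, cytosolic genes as circles and mitochondrial genes as diamonds. Dotted lines mark 2-fold. All 30 lie within 2-fold on the horizontal axis, and Vars (1.14) alone lies beyond it on the vertical axis. The axes share no array, and each rests on 1 array per line.

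The genes around tRNA charging were read from lists of textbook members. The scaffolds of the multisynthetase complex were lower in both lines. Aimp2 stood at -1.73 in the miR-17-92 cells and -3.02 in the control cells, Eef1e1 at -2.07 and -2.32 and Aimp1 at -0.60 and -0.96, so that 2 of 3 were 2-fold lower in each line. Of 4 genes that complete charging in mitochondria, 1 was 2-fold lower in each line, Gatb (-1.37 and -1.53), a subunit of the amidotransferase that turns the Ears2 product into glutaminyl-tRNA. Its partners Qrsl1 (-0.44 and -0.60) and Gatc (-0.51 and -0.64) and the initiator formyltransferase Mtfmt (-0.50 and -0.87) were within 2-fold. The 2-fold lower share of all genes was 12.8% in the miR-17-92 cells and 18.0% in the control cells. Lists of 3 and 4 genes are short to set against these shares, and their counts are not read as a result.

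Of 5 detected relatives and proofreading enzymes 3 were 2-fold lower in the miR-17-92 cells (median -1.76) and 4 in the control cells (median -1.68). Among all genes the shares were 12.8% and 18.0%, and a list of 5 is short to set against them. Dtd1, which removes D-amino acids from tRNA, stood at -3.54 and -4.19, and Tarsl2, a second cytosolic threonyl-tRNA synthetase whose symbol lies outside the naming rule, at -1.76 and -1.68. Dtd2 was undetected on both arrays with DOX, and at least 2.54-fold and 2.53-fold lower. The editing protein Aarsd1 stood at -0.43 in the miR-17-92 cells and -1.59 in the control cells. Tars itself was within 2-fold in both lines, unlike its relative Tarsl2.

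Upstream of charging, 9 of 20 genes of tRNA processing and export were 2-fold lower in the miR-17-92 cells (median -0.86) and 10 of 20 in the control cells (median -1.02), with none 2-fold higher. Tsen54 of the tRNA splicing endonuclease (-2.96 and -2.49) and Rpp38 of RNase P (-2.27 and -2.49) were among the lowest. Of 41 tRNA modification genes 19 were 2-fold lower and 2 higher in the miR-17-92 cells (median -0.96), and 20 lower and 1 higher in the control cells (median -0.97). Mettl1, the tRNA guanine methyltransferase, stood at -3.99 in the miR-17-92 cells and was at least 17.8-fold lower in the control cells, and Trmt61a stood at -3.62 and -3.38. Of 23 genes of RNA polymerase III, which transcribes tRNA genes, its factors and its repressor Maf1, 7 were 2-fold lower and 1 higher in each line (medians -0.55 and -0.36). In both lines the 7 include Polr3d, which was detected in miR-17-92 cells without DOX alone. Polr3d was at least 1.57-fold lower with DOX there, and it gets no fold in the control cells, where neither array detected it. The higher gene in the miR-17-92 cells was the initiation factor subunit Bdp1, at 1.74 by its measured ratio and higher by at least 1.92-fold, since it was not detected without DOX. In the control cells it was Maf1, at 1.20 there and 0.64 in the miR-17-92 cells. Of all analysed genes 12.8% were 2-fold lower in miR-17-92 cells and 18.0% in the control cells.

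Downstream, of 6 genes that bring charged tRNA to the ribosome 4 were 2-fold lower in miR-17-92 cells and 5 in the control cells. Tufm, the mitochondrial carrier, stood at -1.29 and -1.42 and its exchange factor Tsfm at -1.44 and -2.07. Of 6 selenocysteine genes none was 2-fold lower in miR-17-92 cells and 2 were in the control cells, Pstk (-0.64 and -1.27) and Sepsecs (-0.89 and -1.05), which make selenocysteine on a tRNA first charged by Sars. Eefsec, which carries this tRNA to the ribosome, was at 0.90 and 1.09. Over all analysed genes the 2-fold lower shares were 12.8% in miR-17-92 cells and 18.0% in the control cells. A list of 6 genes is short to set against them, and the selenocysteine counts are not read as a result.

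Several cytosolic synthetase genes are known to respond, through ATF4, to a lack of amino acids. Of 10 detected genes of this response 3 were 2-fold lower and 2 higher in the miR-17-92 cells (median -0.50), and 5 lower and 2 higher in the control cells (median -0.81). Asns, asparagine synthetase, stood at -1.61 and -2.94, and Phgdh, the entry enzyme of serine synthesis, at -2.60 and -3.21. Ddit3, which encodes the stress factor CHOP, was higher, at 2.09 and 2.65, and Atf4 mRNA lay at -0.19 and -0.56. Of all genes 12.8% and 18.0% were 2-fold lower, and 14.8% and 19.9% were 2-fold higher. The count of 2 higher genes is thus near the share of all genes. The response list held genes of both directions.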

How the data were processed

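Biotin-labelled total RNA was put on Illumina bead arrays (per the labels' protocols) and read out with GenomeStudio, per the submitters' processing notes, with no version stated. The deposited table holds a linear signal intensity and an unadjusted detection p-value per probe (45281) and array, per the file headers. The detection columns carry slide positions and were linked to arrays by their values: the p-value never rose with its own array's signal. The authors' processed intensity table keeps each array's order of probes (r = 1), is linear and not centred, and has medians of 104.6 and 100.9 with DOX against 143.2 and 146.9 without it (miR-17-92 cells, then control cells); how it was made was not stated. It was an alternative.

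Background was corrected with the nec function of limma 3.58.1 (R 4.3.3), which reads the level of the negative controls off the detection p-values. An offset of 16, log2 and quantile normalization followed. Median raw signals were 119.0 and 127.3 with DOX against 159.5 and 138.7 without it, lines in the same order. Gene names came from the platform annotation (34885 probes with 1 gene, 18 with several, 10378 unnamed), 34807 matched by gene number to the RefSeq table of GRCm38.p6, whose symbols are used. The annotation's symbols gave the same 35 members. A gene undetected on a comparison's dim side is given as a lower bound against the lowest detected signal of that array, and a difference with both sides undetected gets no fold; counts and medians use measured ratios. Every detected member is named; values per array are given for the lowest and highest DOX effects of each class, the largest differences between lines and the amino acid pair with the widest gap; list members by size of effect or role. Further members named for their role were chosen after their values were seen. The members and lists were chosen with earlier results of these data known. The procedure was tested on simulated data. Groups follow the labels, 1 array each, so no test was run. The alternatives were no background correction, an offset of 50, median scaling, the authors' values, the mean of probes, detection on all 4 arrays, a detection p of 0.05, and cytosolic genes without Gars and Kars.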

Additional observations from a re-analysis of the deposited data

Results flagged for a closer look

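Of the 30 synthetases detected on all 4 arrays, 5 had DOX effects of opposite sign in the lines, a difference that was not tested. The share of all genes with opposite signs is not given here, so the count of 5 is not read as a result. Wars2 was at -0.58 in the miR-17-92 cells and 0.12 in the control cells, a difference of -0.70. Tars was at 0.24 and -0.29, a difference of 0.53. Fars2 (-0.15 and 0.09, difference -0.25), Qars (-0.05 and 0.17, difference -0.22) and Aars2 (0.12 and -0.004, difference 0.13) differed by less than the spread between probes of a gene, log2 0.31. With median scaling the signs of Fars2, Qars and Aars2 in the control cells turned, to -0.03, -0.01 and 0.46.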

How the results depend on the processing

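Of 105 recomputed medians and counts of the cytosolic and mitochondrial synthetases, 104 stayed within the spread between probes or within 1.5 times the count. The exception was the cytosolic median of the DOX effect in the miR-17-92 cells, -0.71 with no background correction. Of 1140 recomputed single values 71 moved by more than that spread, and no 2-fold difference changed sign. The all-gene median of the DOX effect was 0.25 and 0.24 with median scaling and -0.06 and -0.13 with the authors' processed values (miR-17-92 cells, then control cells). Over all genes the 2-fold higher and lower counts were 1281 and 1108 in the miR-17-92 cells and 1722 and 1565 in the control cells, against 1765 and 899, and 2139 and 1299, with median scaling, and 661 and 942, and 946 and 1414, with the authors' values. Relative to the all-gene median, the cytosolic medians of -0.94 and -0.84 with median scaling and -0.80 and -0.96 with the authors' values remain lower. Genes near 2-fold changed side: Wars, Lars and Pars2 in the control cells and Cars, Pars2 and Yars in the miR-17-92 cells came within 2-fold under some settings, while Gars passed it in both lines with median scaling and the authors' values, and Iars2 and Sars in the miR-17-92 cells with the mean of probes (-1.10 and -1.51). Over all settings the count of 2-fold lower members was 13 to 17 in miR-17-92 cells and 13 to 15 in control cells. The share of all genes that was 2-fold lower moved with the setting too. It was 8.57% to 12.8% in miR-17-92 cells and 12.6% to 18.3% in control cells. No paired analysis was possible because each group holds 1 array, so no result comes from a test. Signals near background, such as Cars, Hars, Nars2, Yars and Farsa, are the least precise.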
